A study of Mus musculus with 9 samples.

Results

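Insulin-like growth factor 1 (Igf1), the acid-labile subunit that carries it in plasma (Igfals), the type 1 IGF receptor (Igf1r) and the IGF-binding proteins (Igfbp1 to Igfbp7) were examined in bulk liver RNA of aged mice. The members were chosen by symbol, and 10 of the 27179 genes in the deposited table are members. The study used C57BL/6J mice labelled wild type and fed chow ad libitum. All of them received, at 17 months of age, an AAV8 vector that expresses the small nuclease saCas9 under the hepatocyte promoter TBG, and the liver m-lobe was taken 3 weeks later. In the sgRosa26 group (n = 4 libraries, A to D) the U6-driven guide RNA in that vector was directed at the Rosa26 locus, a control cut, and in the sgCcnd1 group (n = 5, E to I) at Ccnd1, which encodes the cell cycle protein cyclin D1. Controls therefore also carry the vector, the nuclease and a cut, and no uninjected group was analysed here. The letters only name the libraries in the order of the table's columns. The column names give the guide and a number, different in each, whose meaning is not stated, and no replicate number. The labels do not state outright that each library is a separate mouse, so p-values measure the spread between these libraries.

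IGF1 is a small hormone related to insulin, and most of what circulates is made by hepatocytes under the control of growth hormone. Growth hormone acts through its receptor, the kinase JAK2 and the transcription factor STAT5. In plasma most IGF1 sits in a complex with a binding protein and the acid-labile subunit, which prolongs its life, while other binding proteins carry it in smaller complexes or release it after cleavage. Hepatocytes themselves have very little IGF1 receptor, and the liver's binding proteins come from different cells: Igfbp1 and Igfbp2 are hepatocyte genes, whereas Igfbp3, Igfbp5, Igfbp6 and Igfbp7 are known mainly from endothelial, stellate, mesothelial and other non-parenchymal cells.

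Depth was 10840595 to 20176201 gene-assigned reads per library. All 10 hepatocyte markers listed, among them Alb and Hnf4a, were present in every library. The targeted gene, Ccnd1, had 744 ± 110 normalized counts in sgRosa26 (SD, n = 4) and 362 ± 40.6 in sgCcnd1 (SD, n = 5), and fell by 1.03 on the log2 scale (limma adjusted p = 0.0116). It did not pass when B, D, F, H or I was left out (limma adjusted p = 0.0558 to 0.0857, log2 fold change -1.11 to -0.96 over all 9 omissions). The promoter restricts the nuclease to hepatocytes, whereas all cell types of the lobe contribute to the RNA. The labels give no sex, and library H stood apart in Y-linked transcripts, with 2.00 normalized counts of Ddx3y against 810 to 1154 in the other 8 libraries. Its values for sex-biased liver genes are given with those lists. Library B stood apart in markers of the liver's mesothelial cover, given with Igfbp5 and Igfbp6.

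The RefSeq start sites of 2 members hold motifs of the hormones that are known to control them, and they are shown because both genes and lists of the same hormones' targets are described here. The Igfbp1 window holds CAAAACA, the core of insulin response sequences, which FOXO factors can bind. An Igfals window holds TTCNNNGAA, the pattern that STAT5 can bind. The sequences are the 150 bases before the start, 5′ to 3′ on the plus strand of GRCm38.p6, at chr11:7197637-7197786 for Igfbp1 and chr17:24878081-24878230 for 1 of the 3 Igfals starts listed (the window lies inside the annotated gene), and capitals mark the motif.
Igfbp1: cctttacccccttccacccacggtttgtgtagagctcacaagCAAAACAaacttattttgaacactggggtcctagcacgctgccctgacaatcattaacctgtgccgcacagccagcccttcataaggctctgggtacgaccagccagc
Igfals: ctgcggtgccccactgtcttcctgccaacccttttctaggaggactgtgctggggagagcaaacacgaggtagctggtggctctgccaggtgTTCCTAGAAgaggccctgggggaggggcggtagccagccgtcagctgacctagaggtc
Both motifs were searched on both strands of 300-base windows (250 before and 50 after the start) around 32851 start sites, and the TTCNNNGAA motif reads the same on each strand. The CAAAACA motif begins 108 bases before the Igfbp1 start, was found in 6.28% of all windows, and occurs in the windows of 1 of the 10 members. The TTCCTAGAA match begins 58 bases before the Igfals start. That motif was found in 8.30% of all windows and in the windows of 1 of the 10 members, Igfals, which has a further match, TTCTCAGAA, 236 bases before another of its starts. A match shows these letters only, and binding was not measured.

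On the same build, the 10 genes lie on 7 chromosomes. Igfbp1 (chromosome 11, 7197787 to 7202546, plus strand) and Igfbp3 (7206086 to 7215498, minus strand) are neighbours that face each other tail to tail with 3539 bp between them. Igfbp2 (chromosome 1, 72824480 to 72852474, plus strand) and Igfbp5 (72858065 to 72874865, minus strand) are arranged in the same way, 5590 bp apart. Igf1 lies on chromosome 10 (87858265 to 87937047), Igfals on 17 (24877844 to 24882011), Igf1r on 7 (67952257 to 68233668), Igfbp4 on 11 (99040005 to 99052655), Igfbp6 on 15 (102144186 to 102149512) and Igfbp7 on 5 (77349240 to 77408045). The annotation of Igfbp7 overlaps that of the protein-coding gene Polr2b, and those of Igf1, Igfals and Igf1r overlap lncRNA genes. The use of strand in counting is not given in the sources used here, so reads of these 4 members and of their overlapping genes may not be separable.

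Divided by exon length, the members differed widely in level in control liver. Igfbp2 (3910 ± 561 normalized counts per kb, SD, n = 4) and Igfbp4 (3756 ± 246) were highest, and their ranges overlapped. Igf1 followed at 815 ± 83.6 normalized counts per kb, below every Igfbp4 value. The levels of Igf1, Igfbp7 (739 ± 144), Igfbp1 (523 ± 226) and Igfals (368 ± 61.7) overlapped each with the next. Igfbp3 was at 144 ± 38.7 normalized counts per kb, clear of Igfals above and of Igfbp5 (36.5 ± 23.9) below, and Igfbp5 overlapped with Igfbp6 (18.0 ± 14.8). Igf1r was lowest at 4.14 ± 1.11.

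**Figure D1:**
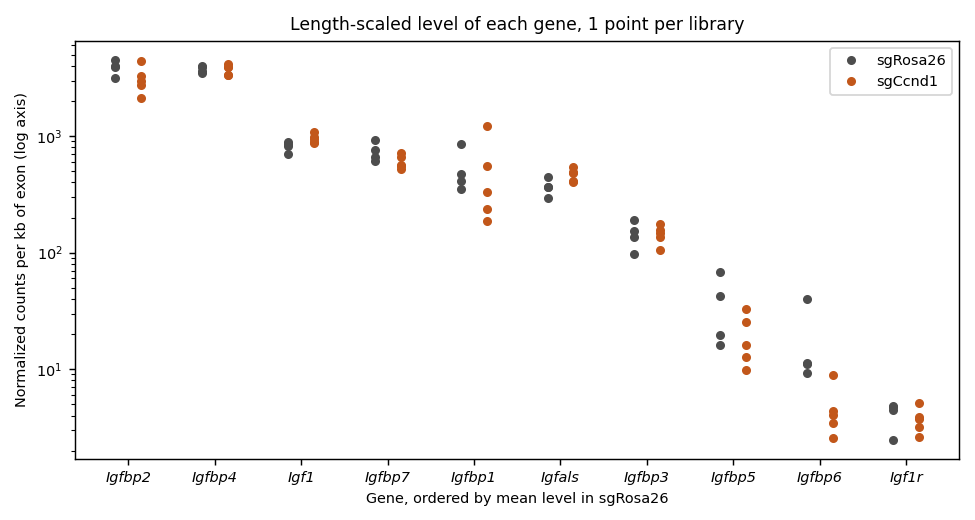
Normalized counts per kb of exon (log axis) for each of the 10 genes, ordered by their mean in sgRosa26, with 1 point per library (grey sgRosa26, n = 4, orange sgCcnd1, n = 5). Igfbp2 and Igfbp4 lie at the top in both groups, and Igf1r and Igfbp6 lie at the bottom.

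Igfbp2 and Igfbp4 together made up most of the binding-protein message in every library. Igfbp4 held 39.8% to 52.0% and Igfbp2 33.6% to 46.0% of the summed Igfbp1 to Igfbp7 level per kb. Igfbp3, which encodes the main carrier of IGF1 in plasma, held 1.01% to 2.76%. With the longest transcript as the length in place of all exons, the control order was the same. In sgCcnd1, Igfbp2 and Igfbp4, Igfbp1 and Igfals, and Igfbp6 and Igf1r were close enough that their order depended on the length used.

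Between the groups, 0 of the 10 members passed the threshold of 0.05 in limma after adjustment over all 12993 genes tested. The background in that test was 0.00770% of genes, which is Ccnd1 alone, and edgeR called 0 members at the same background. DESeq2 called 0 members where it called 0.800% of genes (0.262% higher, 0.539% lower in sgCcnd1). At an unadjusted limma p under 0.05 there were 2 members higher in sgCcnd1, Igf1 and Igfals, and 1 lower, Igfbp6, where 5.22% of all genes were higher and 5.74% lower. That balance depended on the setting: quantile normalization, 75th percentile scaling and edgeR on all 9 libraries each gave 1 higher, Igfals, and 3 lower. Over 21 alternatives, the unadjusted p was under 0.05 in 19 for Igfals, 12 for Igfbp7, 10 for Igf1, 6 for Igfbp5 and 4 for Igfbp2. For Igfbp6 it was under 0.05 in all 20 alternatives that gave a value. The groups did not overlap in 1 member, again Igfbp6, which was lower in sgCcnd1. Igfbp6 passed the filter on low counts only through the controls and so had to be lower, and nothing is read from its place in these counts. Over all genes tested, 1.97% did not overlap and were lower, 1.92% were higher, and 3.89% were either. The median log2 fold change was -0.21 over the members, -0.14 over the 9 members other than Igfbp6, and 0.014 over all genes tested, of which 6877 had a positive and 6116 a negative value. Fold changes here are differences in mean log2(normalized count + 1), sgCcnd1 minus sgRosa26, which understates differences of genes with few reads.

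**Figure D2:**
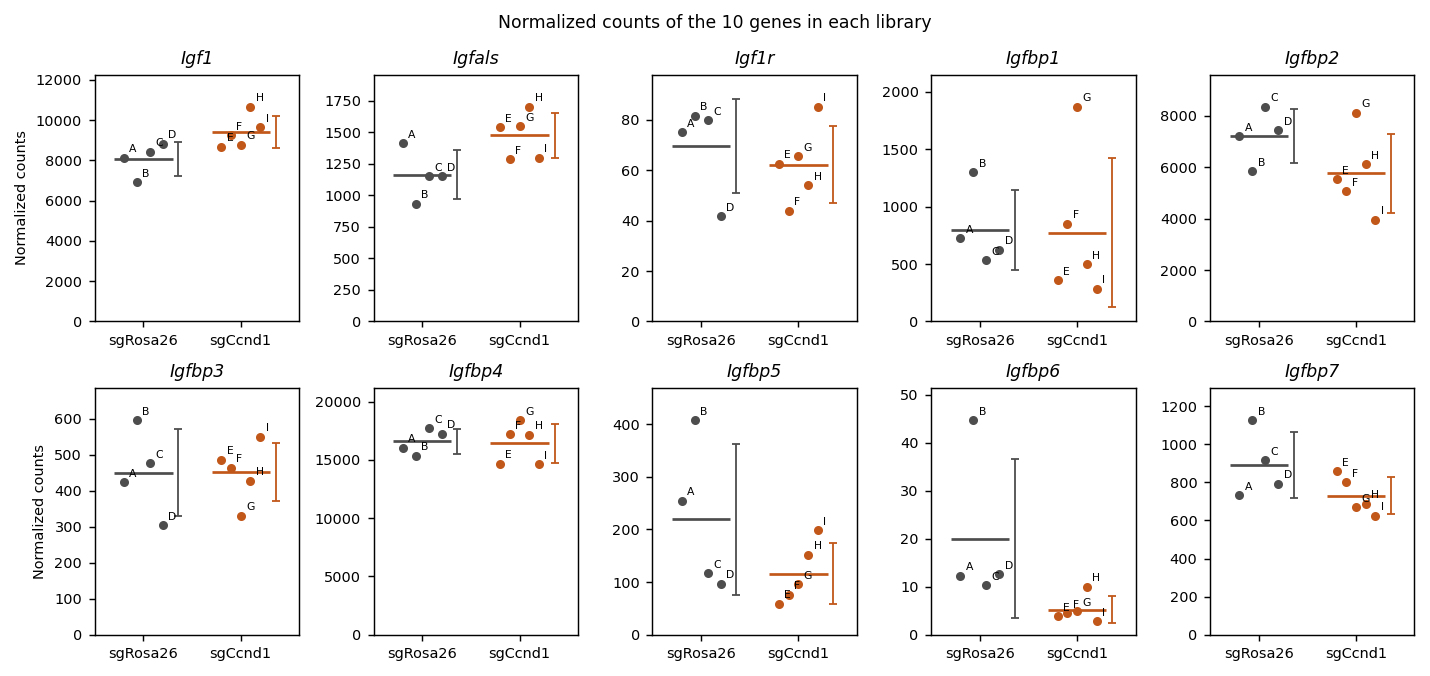
Normalized counts of each gene (vertical axes start at 0), with 1 lettered point per library, a line at the group mean and a bar of 1 SD beside it (grey sgRosa26, n = 4, orange sgCcnd1, n = 5). Igfbp6, which passed the filter on low counts only through the controls, is the 1 panel in which the groups do not overlap. Library B is the highest control for Igf1r, Igfbp1, Igfbp3, Igfbp5, Igfbp6 and Igfbp7.

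**Figure D3:**
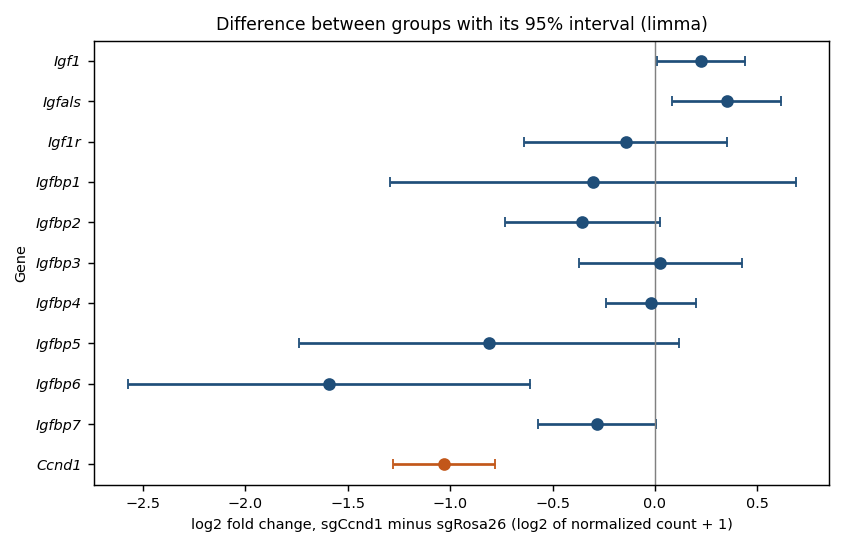
The log2 fold change of each gene (horizontal axis, sgCcnd1 minus sgRosa26) with its 95% interval from limma, not adjusted for the number of genes. The interval lies above 0 for Igf1 and Igfals and below 0 for Igfbp6 and for the targeted gene Ccnd1, which alone passed the adjusted threshold. Igfbp6 passed the filter on low counts only through the controls, so it had to be lower and nothing is read from its interval.

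The hormone and its plasma carrier had higher means in sgCcnd1 by a small margin that did not pass the adjusted test. Igf1 (Entrez 16000) had 8129, 6909, 8433 and 8828 normalized counts in the controls A to D, while libraries E to I had 8684, 9266, 8775, 10669 and 9654. The lowest value was that of B and the highest that of H, and 3 of 5 sgCcnd1 libraries lay above all controls. The group means were 8075 ± 828 (SD, n = 4) and 9409 ± 805 (SD, n = 5), so that the sgCcnd1 mean was 117% of the control mean. The log2 fold change was 0.22 with a 95% interval of 0.0077 to 0.44 (limma adjusted p = 0.441, exact permutation p = 0.0397). Without B it was 0.15 (limma adjusted p = 0.746), without H 0.18 (0.703) and with quantile normalization 0.13 (0.662). The unadjusted p, 0.0434, was above 0.05 in each of these 3, with no filter on low counts, with 75th percentile scaling, in edgeR, and without A, F or I.

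Igfals (Entrez 16005), the acid-labile subunit, had 1413, 935, 1154 and 1154 normalized counts in A to D and 1542, 1289, 1551, 1704 and 1300 in E to I. All 5 sgCcnd1 libraries lay above controls B, C and D, and 3 of them also lay above A. The means were 1164 ± 195 (SD, n = 4) and 1477 ± 179 (SD, n = 5). This gave a log2 fold change of 0.35 with a 95% interval of 0.084 to 0.62 (limma adjusted p = 0.337, exact permutation p = 0.0476). Without B the value was 0.25 (limma adjusted p = 0.628), without H 0.30 (0.597) and without A 0.45 (0.223). The unadjusted p, 0.0140, was 0.0529 without B and 0.0505 in edgeR without H. As in Igf1, the lowest library was B and the highest was H.

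Because growth hormone drives both genes, the growth hormone receptor pathway was examined as a list of 12 genes, of which 11 could be tested. In limma, 0 passed the adjusted threshold. At an unadjusted p under 0.05 there was 1 of 11 higher, Socs2, and 1 lower, Stat5a, beside 5.22% and 5.74% of all genes, and the median log2 fold change was 0.083. Socs2, a feedback inhibitor that growth hormone induces through STAT5, had 171, 118, 99.5 and 91.3 normalized counts in A to D and 307, 278, 251, 807 and 170 in E to I. In 4 of 5 sgCcnd1 libraries Socs2 was above all controls, and library I lay level with control A. Its log2 fold change was 1.41 (95% interval 0.65 to 2.18, limma adjusted p = 0.253, exact permutation p = 0.0238), and without H, the highest library, it was 1.07 (limma adjusted p = 0.393).

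Stat5a, which encodes 1 of the STAT5 proteins, did not overlap between groups. It had 290 to 357 normalized counts in sgRosa26 and 233 to 277 in sgCcnd1, with a log2 fold change of -0.37 (95% interval -0.57 to -0.16, limma adjusted p = 0.253). The exact permutation p was 0.00794, as low as 4 against 5 libraries can give. Stat5b, the other STAT5 gene, was at 0.036 on the log2 scale (limma adjusted p = 0.945), and Jak2 0.083 (0.7501). The growth hormone receptor gene Ghr, the member of the list with the highest count, had 8118 ± 813 and 8919 ± 557 normalized counts, a difference of 0.14 on the log2 scale (limma adjusted p = 0.603) that was 0.072 without B. Cish, a second STAT5-induced inhibitor, had 106 to 196 normalized counts in controls and 161, 473, 87.1, 590 and 122 in E to I. It was thus above all controls in F and H only and did not follow Socs2 in E and G (limma adjusted p = 0.709).

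**Figure D4:**
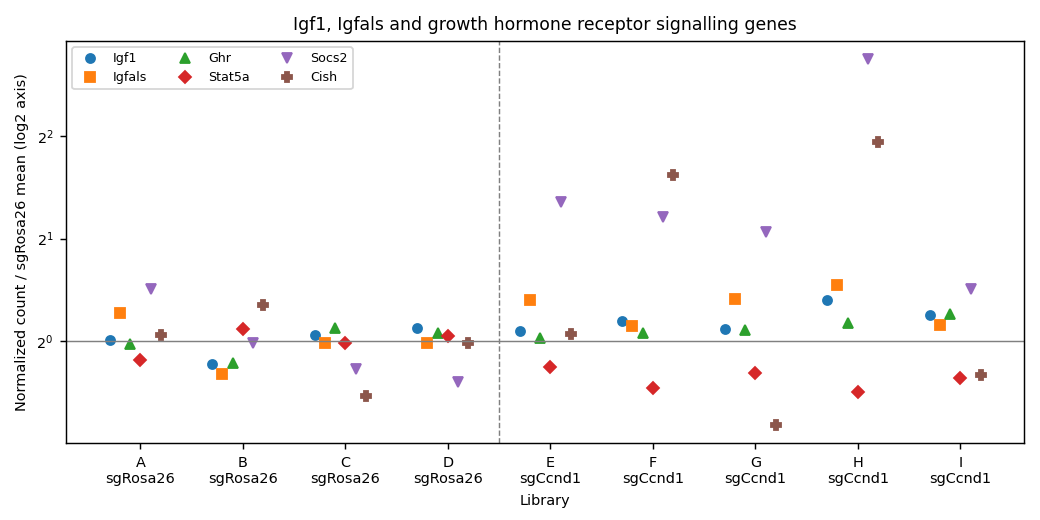
Normalized count of each gene divided by its sgRosa26 mean (log2 axis) in the controls A to D, left of the dashed line, and the sgCcnd1 libraries E to I, right of it. Igf1 and Igfals are lowest in B and highest in H, Stat5a lies below its controls in all 5 sgCcnd1 libraries, and Socs2 and Cish are highest in H.

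The pattern of growth hormone release also sets sex-biased liver genes, and these were listed separately. Of 16 male-biased genes, all tested, 0 passed the adjusted threshold in limma, 14 had a positive and 2 a negative log2 fold change, and the median was 0.30. Control A was the lowest of all 9 libraries for 12 of the 16, and without A the split was 8 positive and 8 negative with a median of -0.010. Library H, which had almost no reads of Ddx3y, was the highest of all 9 for 7 of the 16 and the lowest for 0. The median was 0.11 without H and 0.53 without C. Nudt7 had 3926 ± 924 normalized counts in sgRosa26 (SD, n = 4) and 5670 ± 947 in sgCcnd1 (SD, n = 5), which was 0.55 on the log2 scale (limma adjusted p = 0.306). Cyp4a12a differed in mean by 0.77 (limma adjusted p = 0.468) and the abundant urinary protein gene Mup3 0.43 (0.502). Control A was the lowest library for each of these 3 genes, and without A the values were 0.36 for Nudt7, 0.33 for Cyp4a12a and 0.16 for Mup3. The 14 female-biased genes listed summed to 191 to 457 normalized counts in sgRosa26 and 172 to 521 in sgCcnd1, lowest in H and highest in G. Of these 14 genes only 4 had enough reads to be tested. Among them, Acot3 was at 0.51, Hao2 at 0.56 and Cyp17a1 at -0.16 on the log2 scale (limma adjusted p = 0.7096, 0.723 and 0.904). With a library left out, they ranged from -0.019 (without C) to 0.88 (without D) for Acot3, from 0.17 (C) to 1.07 (D) for Hao2 and from -0.56 (A) to 0.034 (D) for Cyp17a1. In edgeR the values of Acot3 and Hao2 were 0.27 and 0.28.

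Igfbp1 (Entrez 16006), a binding protein that liver makes in fasting and stress and that insulin shuts off, was more variable than the other hepatocyte members. It had 727, 1301, 534 and 626 normalized counts in A to D, and 361, 852, 1870, 501 and 287 in E to I. The sgCcnd1 group held both the highest value, in G, and the lowest, in I, and its range enclosed that of the controls. The coefficient of variation was 43.3% in sgRosa26 and 83.9% in sgCcnd1, against 10.3% and 8.56% for Igf1. The sgCcnd1 figure includes library G, at 1870 normalized counts, while E, F, H and I ranged from 287 to 852. The log2 fold change was -0.30 with a wide interval of -1.30 to 0.69 (limma adjusted p = 0.839, exact permutation p = 0.619). It was -0.71 without G, -0.47 without C, -0.12 without E, -0.039 without B and -0.033 without I. On the recovered reads it was -0.053 in edgeR with TMM, -0.049 with RLE and -0.051 in DESeq2, so a change of either sign was within the error of these libraries.

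Other genes that insulin represses or fasting induces were read beside Igfbp1. Of 15 genes in the table, all tested, 0 passed in limma, 12 had a positive and 3 a negative log2 fold change, and the median was 0.15. Angptl4, a fasting-induced lipase inhibitor, had 227 to 673 normalized counts in controls and 389, 511, 1837, 1100 and 856 in E to I, and a mean difference of 0.97 on the log2 scale (limma adjusted p = 0.417). Library G, the highest for Igfbp1, was also the highest for Angptl4 and for Pck1, the gluconeogenic enzyme gene, where it had 55746 normalized counts and the other 8 libraries ranged from 17921 to 34507. In G, 7 of the 15 genes had their highest value of all 9 libraries and 1, Fgf21, its lowest, while G6pc, a second gluconeogenic gene, was lower in G (5595 normalized counts) than in the other sgCcnd1 libraries (7182 to 8088). Library B, the second highest for Igfbp1, was not high for Angptl4 or Pck1. For Pdk4, another gene of the list, B was the highest of all 9. It had 796 normalized counts there, and the other 8 libraries ranged from 246 to 469. For 3 of the 15 genes B was the lowest. Creb3l3, a fasting-induced transcription factor gene, was at 0.15 on the log2 scale (limma adjusted p = 0.632), and at 0.056 without A. The mice fed freely per the labels, time since the last meal is not given in the sources used here, and its part in the Igfbp1 values was not tested.

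Igfbp2 (Entrez 16008), a second insulin-responsive hepatocyte product, had 7217, 5853, 8360 and 7455 normalized counts in A to D and 5529, 5080, 8134, 6111 and 3958 in E to I. In E, F and I it was below all controls, whereas G was as high as the controls. The means were 7221 ± 1037 (SD, n = 4) and 5763 ± 1543 (SD, n = 5), with a log2 fold change of -0.35 and a 95% interval of -0.73 to 0.026 (limma adjusted p = 0.486, exact permutation p = 0.143). The value was -0.49 without G (limma adjusted p = 0.388) and -0.23 without I (0.690). Igfbp1 and Igfbp2 thus shared library G as the highest and I as the lowest of the sgCcnd1 libraries.

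Igfbp4 and Igfbp3 differed little between the groups. Igfbp4 (Entrez 16010), which encodes a binding protein that restrains IGF action until it is cleaved, had the smallest coefficient of variation of the members in sgRosa26, 6.54% (10.3% in sgCcnd1), with 15362 to 17731 normalized counts in sgRosa26 and 14649 to 18413 in sgCcnd1. Its log2 fold change was -0.019 with a 95% interval of -0.24 to 0.20 (limma adjusted p = 0.961). Igfbp3 (Entrez 16009) had 305 to 597 normalized counts in sgRosa26 and 331 to 551 in sgCcnd1. Its log2 fold change was 0.025 with a 95% interval of -0.37 to 0.42 (limma adjusted p = 0.970), 0.17 without B and -0.15 without D. The sign of both values turned under some alternatives, so neither has a direction.

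The largest fold difference among the 10 members was in Igfbp6, the binding protein that prefers IGF2, and it rested on few reads. Igfbp6 (Entrez 16012) had 10, 51, 11 and 13 reads in A to D and 5, 5, 5, 10 and 2 in E to I. As normalized counts these were 12.3, 44.7, 10.3 and 12.6, and 3.81, 4.48, 4.90, 10.00 and 2.84. All 5 sgCcnd1 libraries were below all controls, H by less than 1 normalized count, while the exact 95% Poisson interval of its 10 reads was 4.80 to 18.4 reads (counting error only). The mean was 19.99 ± 16.5 normalized counts in sgRosa26 (SD, n = 4) and 5.203 ± 2.79 in sgCcnd1 (SD, n = 5). The gene passed the minimum mean of 10 normalized counts only through the controls, so that a gene kept in this way was bound to be lower in sgCcnd1.

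For Igfbp6 the log2 fold change was -1.59 with a 95% interval of -2.58 to -0.61 (limma adjusted p = 0.271, exact permutation p = 0.0159). It was -1.13 without B, the highest control (limma adjusted p = 0.574), and -0.87 with a pseudocount of 10 (0.298). On the recovered reads it was -1.95 in edgeR with TMM (edgeR adjusted p = 0.242) and -2.30 without H (0.459). DESeq2 left its adjusted p undefined under its default filter and gave 0.0580 without that filter, an alternative added after the data were seen. Igfbp5 (Entrez 16011), made by stellate and other mesenchymal cells, had 255, 408, 117 and 97.1 normalized counts in A to D, and 58.7, 76.1, 95.9, 152 and 199 in E to I. The groups overlapped, with H and I above controls C and D. Its log2 fold change was -0.81 with a 95% interval of -1.74 to 0.12 (limma adjusted p = 0.510, exact permutation p = 0.190). With a library left out it ranged from -1.12 without D (limma adjusted p = 0.393) to -0.43 without B (0.808). In edgeR with TMM it was -0.96 (edgeR adjusted p = 0.456).

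Igfbp7 (Entrez 29817), a member with low affinity for IGF1 that is abundant in vessels, had 734, 1127, 917 and 793 normalized counts in A to D and 858, 802, 670, 689 and 626 in E to I. In 3 of 5 sgCcnd1 libraries it was below all controls. Its log2 fold change was -0.28 with a 95% interval of -0.57 to 0.0046 (limma adjusted p = 0.457, exact permutation p = 0.119), and -0.16 without B (limma adjusted p = 0.771). Library B was thus the highest control for Igf1r, Igfbp1, Igfbp3, Igfbp5, Igfbp6 and Igfbp7 and the lowest for Igf1, Igfals, Igfbp2 and Igfbp4.

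Markers of the cells known to make these binding proteins are given beside them. The 7 mesothelial markers summed to 164, 361, 88.2 and 117 normalized counts in A to D and to 42.7, 82.4, 77.3, 108 and 129 in E to I. The highest library was B, as for Igfbp5 and Igfbp6, and the lowest was E, as for Igfbp5. Of the 4 mesothelial markers tested, all had a negative log2 fold change, with a median of -0.95 that was -0.51 without B and -0.62 without E. Wt1 did not overlap between groups, at 28.2 to 78.9 normalized counts in sgRosa26 and 14.7 to 26.9 in sgCcnd1 (log2 fold change -1.12, limma adjusted p = 0.255, DESeq2 adjusted p = 0.04999), and Upk3b was at -1.16 (0.467). Msln, another mesothelial marker, was at -0.78 (limma adjusted p = 0.706), -0.22 without B and -0.16 without E. Without B the log2 fold change of Wt1 was -0.80 and that of Upk3b -0.80 (-0.71 without E), beside -1.13 for Igfbp6. None of the 7 was at 0 in all libraries. Fewer cells of a type and less RNA per cell cannot be told apart in bulk RNA, and the part of the mesothelial markers in the Igfbp5 and Igfbp6 values was not tested.

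The 14 stellate cell and fibroblast markers summed to 4554 to 7425 normalized counts in sgRosa26 and 4062 to 6088 in sgCcnd1, highest in B, and 13 of 14 had a negative log2 fold change (median -0.27). Pdgfrb was at -0.50 (limma adjusted p = 0.333) and Col1a1 at -0.76 (0.399). The 12 endothelial markers summed to 4046 to 5817 and 4123 to 6059 normalized counts, with a median log2 fold change of -0.075. The ranges were 3467 to 4243 and 3064 to 3713 for 10 Kupffer cell and macrophage markers, 934 to 1913 and 754 to 1175 for 8 cholangiocyte markers, and 366 to 510 and 212 to 457 for 9 lymphocyte markers, of which 8 were tested and all 8 had a negative log2 fold change (median -0.58). The 10 hepatocyte markers summed to 1814410 to 2142720 and to 1728580 to 2207970, lowest in B among the controls and in H among the sgCcnd1 libraries. Of the 10 macrophage markers, 4 had a positive and 6 a negative log2 fold change (median -0.059), with Cd163 at 0.63 (limma adjusted p = 0.514), above all controls in 4 of 5 sgCcnd1 libraries. Lyz2 (log2 fold change -0.44, limma adjusted p = 0.225) and Cd68 (-0.71, 0.245) were below all controls in all 5 sgCcnd1 libraries, as Wt1 was. In limma, 0 markers of any of the 7 lists passed the adjusted threshold, and the part of these cells in the Igfbp7 value was not tested.

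**Figure D5:**
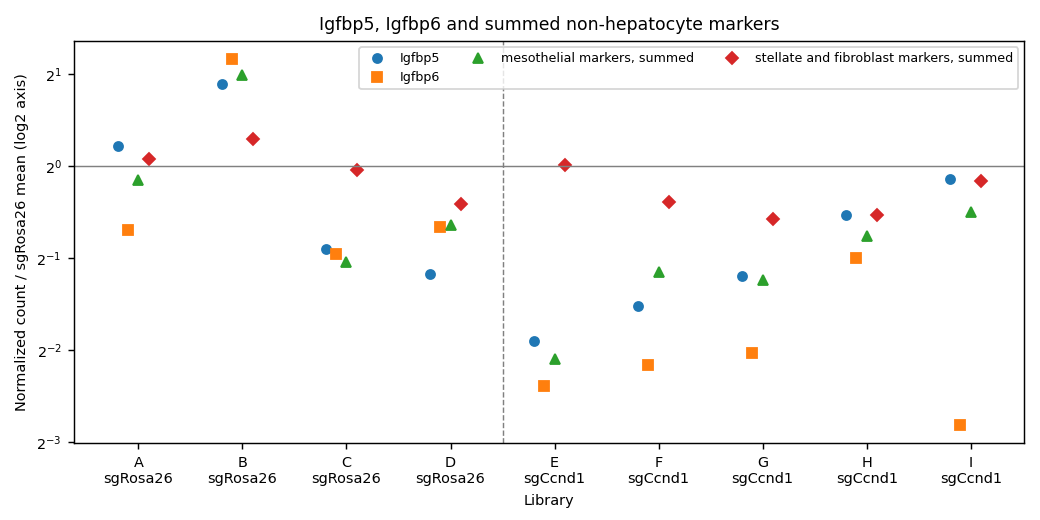
Normalized count of Igfbp5 and Igfbp6 and the summed counts of 7 mesothelial and 14 stellate cell and fibroblast markers, each divided by its sgRosa26 mean (log2 axis), in the controls A to D and the sgCcnd1 libraries E to I. Library B is the highest for all 4 quantities, and in library I Igfbp6 is low while the mesothelial sum is not. The Igfbp6 value in I rests on 2 reads (exact 95% Poisson interval 0.24 to 7.22 reads, counting error only).

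The receptor and its signalling showed no difference that passed the test. Igf1r (Entrez 16001) had 75.003, 81.5, 79.8 and 41.8 normalized counts in A to D and 62.5, 43.9, 65.6, 54.0 and 85.2 in E to I, and the groups overlapped throughout. Its log2 fold change was -0.14 with a 95% interval of -0.64 to 0.35 (limma adjusted p = 0.853). It ranged from -0.37 without D, whose value was far below the other controls, to -0.028 without F, and was -0.26 without I, -0.092 without A, -0.062 without C and -0.052 without B. The insulin receptor gene Insr had 2086 ± 289 and 2287 ± 271 normalized counts, a difference of 0.14 on the log2 scale (limma adjusted p = 0.678) that was 0.050 without B. Igf2r, which clears IGF2, was at 0.13 (limma adjusted p = 0.673). Igf2, the fetal growth factor, had few reads in both groups, at 6.57 to 17.2 normalized counts in sgRosa26 and 6.85 to 17.0 in sgCcnd1.

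Of the 20 symbols listed for other ligands, receptors, relatives of the binding proteins and release factors, 17 were in the table and 8 could be tested, and 0 passed in limma (median log2 fold change 0.13). The proteases Pappa and Pappa2, which free IGF1 by cleaving binding proteins, had at most 3 reads in a library and 0 reads in all libraries, in that order, and were not tested. Esm1, an endothelial gene, had 56.7 ± 33.4 normalized counts in sgRosa26 (SD, n = 4) and 91.6 ± 28.3 in sgCcnd1 (SD, n = 5), and a mean difference of 0.78 on the log2 scale (limma adjusted p = 0.417). Igf2bp2, an RNA-binding protein gene, was at 0.41 (limma adjusted p = 0.561), and at 0.17 without B.

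Downstream of the IGF and insulin receptors, all 34 listed genes were tested and 0 passed in limma. At an unadjusted p under 0.05 there were 5 of 34 higher and 1 lower, beside 5.22% and 5.74% of all genes, and the median log2 fold change was 0.073. Foxo4, a FOXO transcription factor gene, had 529 to 587 normalized counts in sgRosa26 and 616 to 665 in sgCcnd1 with no overlap (log2 fold change 0.20, limma adjusted p = 0.354, permutation 0.00794 in the exact test). Foxo3 was at 0.46 (limma adjusted p = 0.363). Irs1, the adaptor that both receptors use, was at -0.37 on the log2 scale (limma adjusted p = 0.426).

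The genes whose levels ran most alike to 3 of the members over the 9 libraries were picked from the 8913 genes whose mean reached 100 normalized counts. With so many candidates and so few libraries, high values can arise with no link between the genes. The points also share depth and the differences between libraries such as B and G, so these correlations are descriptions only. For Igf1 they were Sbno1 (Pearson correlation 0.96 of log2 values), Thap4 (0.95) and Dcaf12 (0.95). Without B and H, the libraries farthest from the Igf1 median, these values were 0.76, 0.72 and 0.82. For Igfbp1 they were H2-D1 (0.92), Fbxo6 (0.88) and Naxd (0.87), and without G and I 0.84, 0.86 and 0.76. For Igfbp2 they were Neb (0.94), Rbm5 (0.93) and Fam76b (0.92), and without C and I 0.92, 0.86 and 0.92.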

How the data were processed

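Poly(A) RNA of liver was sequenced in 9 libraries (4 sgRosa26, 5 sgCcnd1). The deposited table holds, per the labels and its name, a normalized count signal for each gene and library. Per the submitters' processing notes the authors used Trim Galore 0.6.7, HISAT2 2.2.1, featureCounts 2.0.3 and DESeq2 2.11.40.8, and builds mm10 and GRCm38. The annotation is not given in the sources used here. In every library 100% of the deposited values were whole multiples of 1 number within 0.01 read, so reads could be recovered for count models. EdgeR was also run without library H, which stands apart.

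A model of log2(normalized count + 1) was fitted for the 12993 genes whose mean reached 10 normalized counts, with limma 3.58.1 in R 4.3.3 (lmFit, eBayes with trend, two-sided, no covariates). Benjamini-Hochberg adjustment covered every gene tested, with a threshold of 0.05. Intervals of differences are limma's 95% intervals. Exact two-sided permutation tests used all 126 splits and cannot go below 0.00794. Alternatives were pseudocounts of 0.1 and 10, no filter, a minimum mean of 100, quantile and 75th percentile scaling, robust eBayes, edgeR 4.0.16 (TMM or RLE), DESeq2 1.42.0, and each library left out in turn. On the recovered reads edgeR with TMM called 1 gene and DESeq2 104. The limma step was tested on simulated counts. Levels per kb used all exons of a gene in GENCODE M21, and coordinates and start sites came from RefSeq on GRCm38.p6, matched by Entrez identifier for all 10 members.

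The members and the lists were chosen with earlier results of these data known. The text names all 10 members, Ccnd1, and from each of 6 pathway lists the 2 genes with the smallest limma p and the 1 with the highest count, except 2 genes that are not reported here. Markers were named from 7 marker lists. Cish, Stat5b, Jak2, Pck1, G6pc, Fgf21, Pdk4, Igf2, Igf2r, Irs1, Pappa and Pappa2 were named after their values were seen. Figures were drawn with matplotlib 3.10.9.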

Additional observations from a re-analysis of the deposited data

Results flagged for a closer look

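Of 54 groups of values examined (27 genes in each of the 2 groups), 4 held a library far from the rest of its group, where chance gives about 1 in 20, or 2.70. In control library D, Igf1r had 41.8 normalized counts, and the other controls ranged from 75.003 to 81.5. In control library B, Igfbp6 had 44.7 normalized counts, and the other controls 10.3 to 12.6. In sgCcnd1 library H, Igfbp6 had 10.00 normalized counts, and the rest of its group 2.84 to 4.90. In the same library, Socs2 had 807 normalized counts, and the others 170 to 307. The causes of these values were not tested.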

How the results depend on the processing

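Over 21 alternatives, 0 members were called in any, and the smallest adjusted p of a member was 0.0580 (Igfbp6, DESeq2 without independent filtering). Of 208 values of single members, 194 kept their direction and their side of the threshold and 14 changed sign. For 7 members no alternative changed the sign. Igfbp1 turned to 0.070 in edgeR without library H. Igfbp3 turned to -0.0036 with quantile normalization, -0.0084 with 75th percentile scaling, -0.012 and -0.0076 with edgeR (TMM and RLE), and -0.0055 with DESeq2, with or without independent filtering, and ranged from -0.15 to 0.17 when a library was left out. Igfbp4, at -0.019, ranged from -0.062 to 0.021 when a library was left out and was -0.10 with quantile normalization and -0.053 with 75th percentile scaling. The causes were not tested. With a minimum mean of 100, Igf1r and Igfbp6 gave no value. Ccnd1 ranged from -1.11 to -0.96 when a library was left out, no longer past the threshold without B, D, F, H or I, where fewer samples enter, and was at -1.02 in edgeR without H (adjusted p = 0.0560). The number of genes called was 1, and it was 104 with DESeq2 (98 without independent filtering), 2 under quantile normalization, 0 in edgeR without H and 0 to 2 when a library was left out. DESeq2 without that filter, edgeR without H, and the medians of lists without a library or without Igfbp6 were chosen after seeing the data. No paired analysis was possible because replicate numbers are absent from the column names. Depth limits Igfbp6 most, at 2 to 51 reads per library.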
